A study of Mus musculus with 6 samples.

Results

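Leukotrienes and prostaglandins are lipid mediators made from arachidonic acid, and in the lung they set the tone of airways and vessels, draw in leukocytes and act on platelets. Alox5 (5-lipoxygenase), helped by its membrane partner Alox5ap, makes leukotriene A4, which Lta4h turns into the neutrophil attractant leukotriene B4 and Ltc4s turns into the cysteinyl leukotriene C4. The cyclooxygenases Ptgs1 and Ptgs2 make the common precursor of the prostanoids, from which Ptgis makes prostacyclin and Ptges makes prostaglandin E2. Alox12, the lipoxygenase of platelets, and Alox15, a lipoxygenase of resident macrophages and eosinophils, oxygenate arachidonate at other positions. These 10 enzyme genes were taken by their symbols out of the 41388 genes of the lung RNA-seq table, and all 10 were found once.

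Whole lungs of adult mice were taken at ZT7, where Zeitgeber time counts the hours from lights on. The KO mice lack exons 1 to 3 of Zpbp2 on a C57BL/6J background (strain B6.129S7-Zpbp2tmZuk/Mmjax), and the WT controls were untreated C57BL/6J mice of the same colony. How much sequence of the donor strain remains beside the deleted exons was not given, and 3 of the 10 genes, Alox12, Alox15 and Ltc4s, lie on chromosome 11 with Zpbp2. Each genotype had 3 libraries, named WT1, WT2, WT3, KO1, KO2 and KO3. The comparison asks how lung RNA differs between the genotypes at this time of day.

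Total counts were 59134950 to 71354388 per library, and the 10 genes had between 520 and 8485 counts each in a library, far above the floor of 3 counts. Zpbp2 had 7 to 20 counts in WT and at most 1 in KO, and the lung genes Sftpc, Scgb1a1, Foxj1 and Ager were present in every library. The libraries differed in more than genotype. KO2 and KO3 were nearly alike, with a median difference of 1.71 to 3.31 times that of counting alone (ratio of variances, over 4 count ranges), against 3.77 to 145 for KO1 and KO2 and 1.87 to 50.2 for WT1 and WT2, so they were counted as 1 sample (n = 3 for WT and n = 2 for KO), although the labels give them different animal numbers. This choice changes the number of calls, as other settings do, and the fit with 6 separate libraries is given beside it. The 7 squamous epithelium markers, among them Krt4 and Krt13, summed to 4238 CPM in WT3 and 7954 CPM in KO1 and to at most 4.91 CPM in the other libraries. CPM is the count scaled to a common library size with TMM factors. Because the samples were whole lungs, fewer cells of a type and less RNA per cell cannot be told apart in any value below.

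None of the 10 genes passed the test between genotypes, which was the edgeR quasi-likelihood test with Benjamini-Hochberg adjustment over all 18660 genes tested, at an adjusted p of at most 0.05. Over all genes 2.28% were called. Before adjustment 3 of the 10 had p at or under 0.05 (Ptgis and Alox12 with higher and Alox5 with lower fitted levels in KO), against 27.3% of all genes. In these same 3 genes the KO libraries did not overlap the WT libraries, which was the case for 40.9% of all tested genes. When the 6 libraries were kept as separate samples, Alox12 and Ptgis were called, both higher in KO, against 18.9% of all genes, and Alox5 was not. The median log2 fold change was 0.03 over the 10 genes and 0.02 over all genes. Fitted levels were higher in KO for 6 of the 10 and lower for 4, and in each of these counts the share among the 10 was near or below that of all genes.

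**Figure D1:**
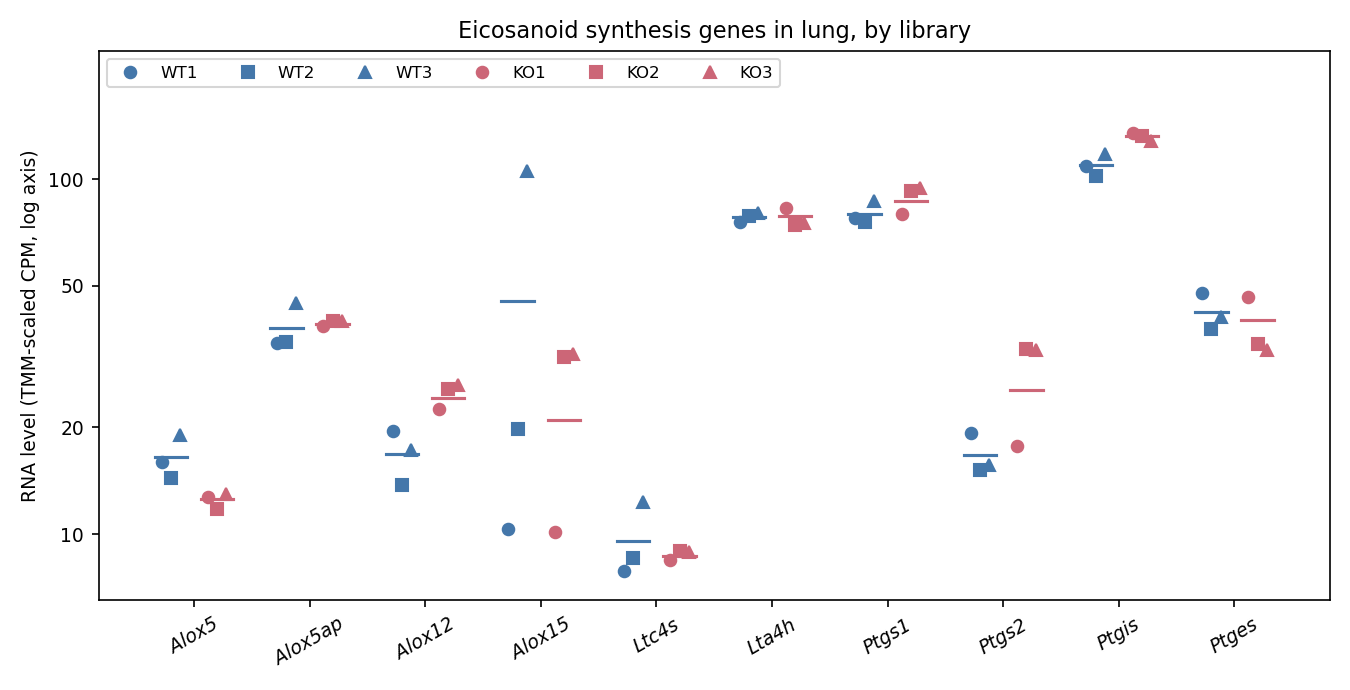
RNA level of each of the 10 genes in CPM (log axis) in the 3 WT libraries (blue) and the 3 KO libraries (red), with 1 point a library; horizontal lines are the means, with KO2 and KO3 averaged first. Ptgis and Alox12 lie higher and Alox5 lower in all KO libraries, Alox15 stands out in WT3, and Ptgs2 stands out in KO2 and KO3.

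Levels of different genes were compared as CPM per kilobase of exon, where the length counts every annotated exon of the gene, over all its transcripts. Ptgis was the highest of the 10, with a median of 47.8 CPM per kb over the 6 libraries (39.8 to 52.5). Alox5ap followed at 27.6 (24.3 to 31.5) and Ptgs1 at 21.4 (19.5 to 24.25). The ranges of these 3 genes did not overlap each other or that of Lta4h, at 12.7 (12.15 to 13.6). In CPM not divided by length, Lta4h (74.1 to 82.7) and Ptgs1 (75.8 to 94.2) overlapped. The order thus depends in part on the exon lengths, such as 6.102 kb for Lta4h and 3.884 kb for Ptgs1. Lta4h, Alox15, Ptges (10.01) and Ltc4s (8.60) came next in this order, and each overlapped the one after it. Alox15 spanned 4.13 to 43.1, and Ptges (8.42 to 12.13) did not overlap Lta4h. Alox12 (5.14), Ptgs2 (4.03) and Alox5 (3.33) were the lowest and also overlapped. Lung RNA of both genotypes thus held more of the prostacyclin synthase than of either cyclooxygenase, and more Alox5ap than Alox5: the Alox5 level was 0.143 to 0.160 times that of Alox5ap in WT and 0.102 to 0.114 times in KO.

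Alox5 carries out the first step of leukotriene synthesis. It lies on the minus strand of chromosome 6, from 116410077 to 116461178 of GRCm38, and no annotated gene overlaps it. Its level was 15.9, 14.4 and 19.0 CPM in WT1 to WT3 and 12.7, 11.8 and 12.9 CPM in KO1 to KO3. Every KO library lay below every WT library, and WT3 was the highest. WT averaged 16.4 ± 2.34 CPM (SD, n = 3) and KO 12.5 ± 0.282 CPM (SD, n = 2), which made a log2 fold change of -0.39 (SE 0.13, 95% interval -0.73 to -0.04) with an edgeR adjusted p of 0.151. With 6 separate libraries the edgeR adjusted p was 0.0546. DESeq2 called it at 0.0430, as it did Alox12 and Ptgis and 22.3% of all genes.

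The sequence before the start of Alox5 is shown because it is the one member with a lower fitted level in all alternatives and all KO libraries. The 250 bases before the RefSeq start, chr6:116461179-116461428 on the minus strand of GRCm38, hold 1 GC box (GGGCGG on either strand, in capitals), 35 bases before the start.
Alox5: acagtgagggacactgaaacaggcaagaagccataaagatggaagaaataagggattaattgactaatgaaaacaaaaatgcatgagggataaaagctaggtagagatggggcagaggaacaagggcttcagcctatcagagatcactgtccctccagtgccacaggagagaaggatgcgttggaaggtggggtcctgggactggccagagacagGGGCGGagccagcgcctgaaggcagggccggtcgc
A GC box stands in 32.7% of 32851 RefSeq windows of this length, so it marks nothing particular to Alox5.

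Neutrophils and alveolar macrophages, among the leukocytes that carry Alox5, were followed here by their markers. The mast cell and eosinophil markers are given below, with Ltc4s and Alox15. Of the 7 mast cell and basophil markers 3 were called, all lower in KO, and the eosinophil markers went both ways. The 6 neutrophil markers summed to 96.5 to 147.5 CPM in WT and 94.7 to 122 CPM in KO, so the groups overlapped, and none of them was called. Among them Mmp9, a protease of neutrophil granules, had 28.4, 19.7 and 18.8 CPM in WT and 14.1, 12.6 and 12.5 CPM in KO. Mmp9 was called lower with 6 separate libraries (edgeR adjusted p 0.0262). The other neutrophil markers overlapped between the genotypes. S100a9 had a log2 fold change of 0.22 (edgeR adjusted p 0.643), and S100a8, Retnlg, Csf3r and Cxcr2 had -0.18, -0.07, -0.25 and -0.29. The alveolar macrophage markers, of which 5 of 6 were in the table, summed to 206 to 259 CPM in WT and 185 to 211 CPM in KO, and 1 of the 5 was called, Mrc1, a macrophage mannose receptor, which fell from 48.3, 54.8 and 56.1 CPM to 35.6, 36.1 and 36.5 CPM. The others went both ways. Ear2 had 22.7, 22.6 and 24.4 CPM in WT and 20.4, 19.6 and 19.3 CPM in KO and was called lower with 6 separate libraries (edgeR adjusted p 0.0332), and Chil3 had a log2 fold change of -0.25 (edgeR adjusted p 0.329). Krt79 had 12.3, 11.8 and 12.7 CPM in WT and 15.3, 15.7 and 14.5 CPM in KO and was called higher with 6 separate libraries (edgeR adjusted p 0.0257), and Marco had a log2 fold change of 0.54 (edgeR adjusted p 0.374). Their part in the Alox5 values was not tested.

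Alox5ap, Lta4h and Ltc4s, which act with or after Alox5, were not called and overlapped between the genotypes. Alox5ap (chromosome 5, 149264767 to 149288153, plus strand) is the membrane protein that presents arachidonate to Alox5. Its level was 34.4, 34.8 and 44.8 CPM in WT and 38.6, 39.7 and 39.8 CPM in KO. WT3 was again the highest library and WT1 and WT2 were the lowest, so the KO libraries lay within the WT range. Its exons share 189 bases with the antisense gene Gm19719, which the table does not list. The log2 fold change was 0.05 (SE 0.13, 95% interval -0.29 to 0.38, edgeR adjusted p 0.845). Lta4h (chromosome 10, 93453411 to 93484875, plus strand), the hydrolase that makes leukotriene B4, was the steadiest of the 10 genes. It had 75.9, 78.8 and 80.3 CPM in WT and 82.7, 74.1 and 75.0 CPM in KO, a highest-to-lowest ratio of 1.12, and its 95% interval ran from -0.14 to 0.16 around a log2 fold change of 0.01 (edgeR adjusted p 0.928).

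Ltc4s, the synthase of the cysteinyl leukotrienes, lies on chromosome 11 from 50236461 to 50238616, 48.3 Mb from Zpbp2. It had 7.88, 8.54 and 12.3 CPM in WT and 8.42, 8.97 and 8.90 CPM in KO. The KO libraries lay inside the WT range, and WT3 was the highest library for Ltc4s too. The log2 fold change was -0.14 (SE 0.22, 95% interval -0.69 to 0.42, edgeR adjusted p 0.733). It was -0.35 with the length and GC offset and turned to 0.0811 without WT3. Ltc4s shares 268 exonic bases with the antisense gene Gm26542, which had 413 counts over the 6 libraries, and since the use of strand in counting was not stated, reads of the 2 genes may not be separable. The tested genes most like Ltc4s over the 6 libraries were C1qa (Pearson r 0.991), C1qc (0.986) and Padi4 (0.985). They were named after their values were seen. Mast cells are a main source of the Ltc4s enzyme. Of the 7 mast cell and basophil markers, 3 were called, against 2.28% of all genes, and all 3 were lower in KO. These were Cpa3, Tpsb2 and Mcpt4, which are mast cell proteases. Cma1, Ms4a2 and Mcpt8 were also lower in every KO library but were not called (edgeR adjusted p 0.0578, 0.173 and 0.149). Tpsb2 went from 3.17, 4.85 and 4.04 CPM to 0.795, 1.05 and 0.9755 CPM, while Kit, which other lung cells express as well, made up most of the summed level (240.3 to 271 CPM in WT and 227.5 to 233 CPM in KO). None of the 7 markers was at 0, and their part in the Ltc4s values was not tested.

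Alox12 makes the main lipoxygenase product of platelets. It lies on the minus strand of chromosome 11 from 70241457 to 70255353, 28.3 Mb from Zpbp2. Its level was 19.5, 13.7 and 17.2 CPM in WT and 22.5, 25.6 and 26.4 CPM in KO. The genotypes did not overlap, KO being higher, and KO1 was the closest to WT. WT averaged 16.8 ± 2.92 CPM (SD, n = 3) and KO 24.2 ± 2.48 CPM (SD, n = 2), which made a log2 fold change of 0.53 (SE 0.17, 95% interval 0.10 to 0.96) with an edgeR adjusted p of 0.126. With 6 separate libraries Alox12 rose by a log2 fold change of 0.56 (edgeR adjusted p 0.0349). Without WT3 and KO1, the libraries with squamous transcripts, it was 0.64 (edgeR adjusted p 0.0498), where KO is the single sample of KO2 and KO3 and WT alone gives the spread.

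The summed level of platelet markers was higher in the same libraries, though not that of each marker. The 6 of them, such as Pf4 and Ppbp (platelet chemokines) and Itga2b and Gp9 (surface receptors), summed to 91.35, 65.5 and 81.9 CPM in WT and to 97.45, 132 and 136 CPM in KO. The order of the libraries by this sum was that of Alox12 in all 6. The level of Alox12 divided by the sum was 0.210 to 0.214 in the WT libraries, and 0.230, 0.194 and 0.193 in KO1 to KO3, so it differed less between libraries than Alox12 itself. Pf4 and Ppbp overlapped between the genotypes, and the other 4 were higher in every KO library. None of the 6 markers was called and none was at 0, and 2 of them, Itga2b and Gp1bb, were called with 6 separate libraries, both higher in KO. The part of platelet content in the Alox12 difference was not tested.

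The sequence before Alox12 is shown because Alox12 had the larger fold change of the 2 genes called with separate libraries. It is chr11:70255371-70255620 on the minus strand and holds 2 GC boxes, 55 and 22 bases before the start, in capitals. The GATA motif AGATAA, found in 9.99% of windows, has no match in it.
Alox12: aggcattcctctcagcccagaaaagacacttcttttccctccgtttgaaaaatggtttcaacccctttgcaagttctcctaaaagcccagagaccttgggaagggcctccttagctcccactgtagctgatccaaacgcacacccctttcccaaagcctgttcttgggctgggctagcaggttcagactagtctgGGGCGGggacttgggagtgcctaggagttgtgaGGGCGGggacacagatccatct

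Alox15 lies on chromosome 11 as Alox12 does (70344152 to 70352031, minus strand). It varied most of the 10 genes, with 10.3, 19.8 and 106 CPM in WT1 to WT3 and 10.1, 31.5 and 32.1 CPM in KO1 to KO3. WT3 held 10.4 times the level of KO1, and the libraries of the genotypes overlapped, with KO1 the lowest of all and WT3 the highest. WT averaged 45.3 ± 52.5 CPM (SD, n = 3) and KO 20.97 ± 15.3 CPM (SD, n = 2). The fitted log2 fold change was -1.09 with a 95% interval of -3.98 to 1.79 (edgeR adjusted p 0.588). The direction depended on 1 library: without WT3 it was 0.48 (edgeR adjusted p 0.675), and without WT3 and KO1 it was 1.08 (0.0424), with a single KO sample that was assumed to vary as the WT samples did. Under that last setting Alox12, Alox15 and Ptgs2 were called, all higher in KO, against 11.9% of all genes.

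The 3 tested genes with the pattern most like that of Alox15 over the 6 libraries were Wipf2 (Pearson r 0.996 on log2 CPM), Prg4 (0.991) and Nrxn3 (0.987). These are 6 points from shared libraries, and KO2 and KO3 are nearly the same point. Prg4, which encodes a lubricant glycoprotein of joints and serous surfaces, had 8.59, 20.6 and 116 CPM in WT and 10.4, 26.8 and 26.4 CPM in KO. Alox15 divided by Prg4 was 0.912 to 1.21 in all 6 libraries. Since Prg4 was already among the genes most like Alox15 in pattern, this ratio is no separate evidence. The 4 pleural macrophage markers, Prg4 included, summed to 63.4, 72.2 and 182 CPM in WT and 56.7, 80.2 and 81.0 CPM in KO. None of the 4 was called or at 0, but Gata6, at 35.2 to 41.5 CPM, did not follow Alox15. The defining eosinophil marker Epx had at most 1 count in any library, and the eosinophil markers, 4 of 5 in the table, summed to 1.76 to 1.97 CPM in WT and 0.779 to 1.785 CPM in KO. Of these Il5ra had 1.28, 1.43 and 1.15 CPM in WT and 0.366, 0.579 and 0.531 CPM in KO. Il5ra was called lower with 6 separate libraries (edgeR adjusted p 0.0122). Prg2 went the other way, with 0.274, 0.298 and 0.617 CPM in WT and 0.318, 0.981 and 0.599 CPM in KO. Its log2 fold change was 0.53 (edgeR adjusted p 0.595), and that of Ccr3 was -0.31 (edgeR adjusted p 0.678).

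**Figure D2:**
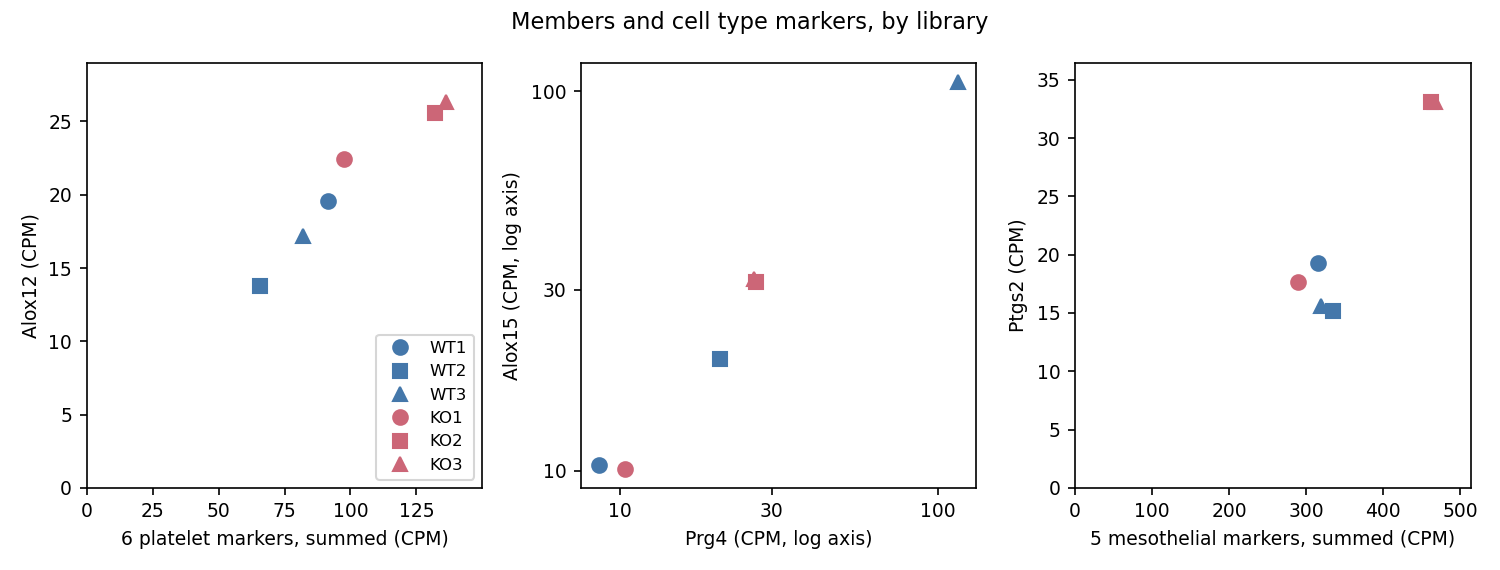
Each point is 1 library (blue WT, red KO). Left, Alox12 against the sum of 6 platelet markers, both in CPM; middle, Alox15 against Prg4, both in CPM on log axes; right, Ptgs2 against the sum of 5 mesothelial markers, both in CPM. Alox12 and the platelet sum have the same order of libraries, WT3 is high for both Alox15 and Prg4, and KO2 and KO3 are high for both Ptgs2 and the mesothelial sum.

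The cyclooxygenases start the prostanoid branch. Ptgs1, the constitutive form, lies on chromosome 2 (36230426 to 36252272, plus strand). It had 77.6, 75.8 and 86.5 CPM in WT and 80.0, 92.8 and 94.2 CPM in KO. KO2 and KO3 were above every WT library and KO1 was not. The log2 fold change was 0.12 (SE 0.10, 95% interval -0.13 to 0.37, edgeR adjusted p 0.477), and without KO2 and KO3 it was -0.0030 (0.986). Leaving out 1 library gave 0.08 (without WT2) to 0.23 (without KO1). Its exons share 148 bases with Gm43621 on the other strand, a gene the table does not list. The platelet gene Pf4 was the gene most like Ptgs1 in pattern (Pearson r 0.992 over the 6 libraries), a gene singled out after its values were seen. Ptgs1 divided by Pf4 was 2.92 to 4.24, so it differed more between libraries than Ptgs1 itself.

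Ptgs2, the inducible form and an early response gene, lies on chromosome 1 (150100031 to 150108227, plus strand). It had 19.3, 15.2 and 15.6 CPM in WT, 17.7 CPM in KO1 and 33.1 CPM in each of KO2 and KO3. KO1 lay within the WT range, so the higher level was found in the sample made of KO2 and KO3 alone. WT averaged 16.7 ± 2.24 CPM (SD, n = 3) and KO 25.4 ± 10.9 CPM (SD, n = 2), which made a log2 fold change of 0.61 (SE 0.29, 95% interval -0.11 to 1.34, edgeR adjusted p 0.242). It was 0.08 without KO2 and KO3 (edgeR adjusted p 0.787) and 0.94 without WT3 and KO1 (0.00547), in fits with a single KO sample where WT alone gave the spread. With 1 library left out it ran from 0.55 (without WT2) to 0.99 (without KO1, edgeR adjusted p 0.0854). The Ptgs2 level per kb was 0.153 to 0.211 times that of Ptgs1 in WT and KO1 and 0.303 and 0.298 times in KO2 and KO3.

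The summed level of mesothelial markers was also highest in KO2 and KO3. The 5 of them, Msln, Upk3b, Wt1, Lrrn4 and Upk1b, genes of the pleural lining, had sums of 316 to 335 CPM in WT, of 289 CPM in KO1, and of 462 and 466.5 CPM in the other KO libraries. None of them was called or at 0. Msln had 93.5 to 101 CPM in WT and KO1 and 169 and 169.8 CPM in KO2 and KO3. Upk3b had 106 to 123 CPM and 173 and 178 CPM in the same order, whereas Wt1 was highest in WT2 (10.06 CPM, against 5.15 to 8.93 CPM elsewhere) and Upk1b lay between 48.6 and 53.8 CPM in all 6, so most of the difference in the sum came from Msln and Upk3b. Ptgs2 divided by the sum was 0.0453 to 0.0611 in WT and KO1 and 0.0717 and 0.0709 in KO2 and KO3, so it was not proportional to the sum. Erythroid genes were also high there, with a sum of 14860 and 15490 CPM against 1905 to 4379 CPM in the other libraries. Their part in the Ptgs2 values was not tested.

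The sequence before Ptgs2 is shown for a palindrome in it that was added to the motifs after the windows were read. The sequence is chr1:150099781-150100030 on the plus strand. It holds, in capitals, a GC box 170 bases and the palindrome TTGCGCAA, a motif of C/EBP factors, 69 bases before the annotated start.
Ptgs2: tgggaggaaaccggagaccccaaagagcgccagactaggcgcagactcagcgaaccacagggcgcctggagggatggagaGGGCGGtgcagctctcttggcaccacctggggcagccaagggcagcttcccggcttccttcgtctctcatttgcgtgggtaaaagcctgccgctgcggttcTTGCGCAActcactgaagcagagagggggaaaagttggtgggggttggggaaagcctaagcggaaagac
The palindrome stands in 0.164% of the 32851 windows (54 of them) and in none of the other 6 members with an entry. Because it was picked from the Ptgs2 window, these shares do not test whether Ptgs2 differs from the others. The motifs TATAAA (12.4% of windows), CACGTG (6.02%) and TGACG (17.8%) had no match on either strand in the windows of these 7 members, and CCAAT (33.8%) had 2, both before Lta4h. These letters are a description of the windows only, and bases after the annotated starts were not searched.

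Of the 2 terminal prostanoid synthases, Ptgis was higher in every KO library. Ptgis, a cytochrome P450 enzyme of vessel walls that makes prostacyclin, a vasodilator, lies on chromosome 2 (167191805 to 167240604, minus strand). Its level was 109, 102 and 118 CPM in WT and 135, 133 and 128 CPM in KO. The genotypes did not overlap, and the 3 KO libraries lay close to each other. WT averaged 110 ± 7.89 CPM (SD, n = 3) and KO 132 ± 3.33 CPM (SD, n = 2), which made a ratio of 1.21 and a log2 fold change of 0.28 (SE 0.07, 95% interval 0.09 to 0.46). The edgeR adjusted p was 0.0917, and 0.0317 with 6 separate libraries. With an offset for gene length and GC content the log2 fold change was 0.16 (edgeR adjusted p 0.321).

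The summed levels of smooth muscle and endothelial markers overlapped between the genotypes, unlike Ptgis. The 5 smooth muscle markers, Acta2, Myh11, Cnn1, Tagln and Des, summed to 1250, 890 and 1445 CPM in WT and to 1720, 1059 and 1060 CPM in KO, so the genotypes overlapped. The 4 endothelial markers summed to 2661 to 2967 CPM in WT and 2509 to 3163 CPM in KO and overlapped too. None of either list was called, but 1 of each was higher in every KO library, as Ptgis was: Tagln had 227, 179 and 239 CPM in WT and 297, 248 and 244 CPM in KO, and Cldn5 had 365, 345 and 365 CPM in WT and 533, 389.6 and 391 CPM in KO. Their part in the Ptgis values was not tested. Ptgis was the member with the smallest p, and the tested genes most like it over the 6 libraries were Cited2 (Pearson r 0.994), Pgap3 (0.993) and Ubald1 (0.991). Ptgis shares 156 exonic bases with 1110018N20Rik on the other strand, which had 658 counts over the 6 libraries against 7072 to 8485 in each library for Ptgis.

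Ptges, the inducible prostaglandin E2 synthase, lies on chromosome 2 (30889471 to 30929863, minus strand). It had 47.7, 37.8 and 40.9 CPM in WT and 46.7, 34.3 and 33.1 CPM in KO. KO1 was within the WT range and KO2 and KO3 were below it. The log2 fold change was -0.06 (SE 0.17, 95% interval -0.49 to 0.36, edgeR adjusted p 0.839). With 1 library left out it ran from -0.32 (without KO1) to 0.0333 (without WT1). Per kb, the ratio of Ptges to Ptgis was 0.226 to 0.285 in WT, 0.226 in KO1 and 0.169 in KO2 and in KO3.

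**Figure D3:**
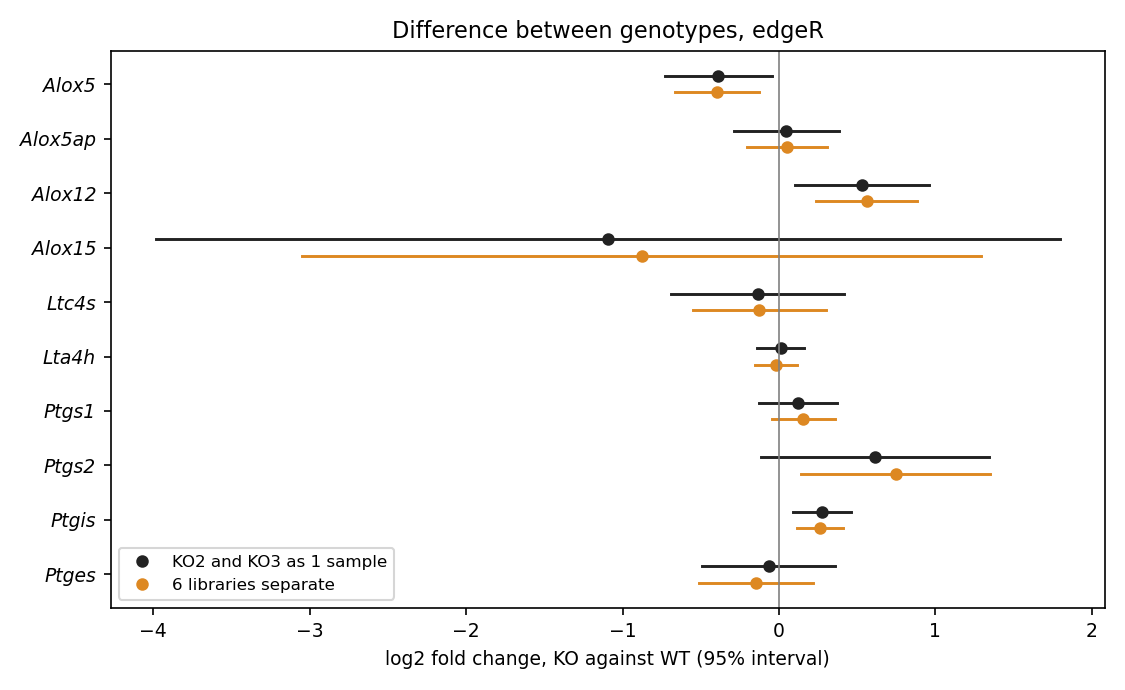
Log2 fold change of each of the 10 genes, KO against WT, with its 95% interval from edgeR, with KO2 and KO3 as 1 sample (black) and with 6 separate libraries (orange). The black intervals of Alox5, Alox12 and Ptgis lie to 1 side of 0 before adjustment for the number of genes, and that of Alox15 is the widest.

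Genes upstream and downstream of these enzymes were taken from a list of 47, of which 44 were tested. Of the 44, 2 were called (1 higher, 1 lower), against 2.28% of all genes, and with 6 separate libraries 10 of 43 were called (3 higher, 7 lower), against 18.9% of all genes. The median log2 fold change of the 44 was -0.05. Among the phospholipases that release arachidonate, Pla2g1b, a secreted enzyme, rose from 9.15, 9.32 and 10.3 CPM to 16.0, 15.2 and 15.03 CPM, a log2 fold change of 0.70 (SE 0.09, edgeR adjusted p 0.0446). The genes of this class with the highest mean CPM, not divided by length, Pla2g6 and Pla2g4a (the cytosolic enzyme that feeds the cyclooxygenases and Alox5), had adjusted p values of 0.847 and 0.607. Leaving out WT1, WT2, WT3 or KO1 gave Pla2g1b log2 fold changes of 0.66 to 0.75 and ended its call, as did leaving out KO2 and KO3 (0.73, edgeR adjusted p 0.0854) and the length and GC offset (0.55, edgeR adjusted p 0.128).

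Among the other prostanoid synthases, Ptgds, which makes prostaglandin D2, fell from 1.13, 0.878 and 1.03 CPM to 0.365, 0.289 and 0.479 CPM (18 to 82 counts a library), a log2 fold change of -1.43 (SE 0.21, edgeR adjusted p 0.0480). The genotypes did not overlap, but the call was lost when any one of WT1, WT2, WT3, KO1 or KO2 was left out, with log2 fold changes of -1.525 to -1.255. The call was also lost with library size alone, without a filter and with the length and GC offset (edgeR adjusted p 0.0501, 0.0530 and 0.106). The log2 fold changes there were -1.48, -1.43 and -1.57. Without KO2 and KO3, which leaves KO1 as the only KO sample, it was -1.47. Hpgds, the other prostaglandin D2 synthase, had 3.17 to 4.14 CPM in WT and 2.91 to 3.01 CPM in KO (edgeR adjusted p 0.317). Cbr1 and Ptges2, highest in mean CPM among these synthases, had adjusted p values of 0.0589 and 0.786.

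Of the other lipoxygenases, Alox12b and Aloxe3, which build the lipid barrier of stratified epithelium, followed the libraries with squamous markers. The count of Alox12b was 1740 in WT3, 3369 in KO1 and 3 to 6 elsewhere, and Aloxe3 had 21.2 and 28.9 CPM in those 2 libraries and 1.71 to 2.03 CPM in the others. Neither was called (edgeR adjusted p 0.783 and 0.750). None of the 6 genes for cysteinyl leukotriene conversion was called, and those with the highest mean CPM, Dpep1 and Mgst3, had adjusted p values of 0.800 and 0.406. None of the 7 genes of transport and breakdown was called either. The prostaglandin transporter Slco2a1, with 571 to 624 CPM in WT and 647 to 731 CPM in KO, and the degrading enzyme Hpgd, with 369 to 391 and 365 to 427 CPM, had adjusted p values of 0.186 and 0.650.

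Of the receptors, 5 for leukotrienes and lipoxins and 8 for prostanoids were tested, and none was called. The leukotriene receptors with the highest mean CPM, Cysltr1 and Ltb4r1, had adjusted p values of 0.409 and 0.729. Among the prostanoid receptors the highest mean CPM were those of Ptgfr, the receptor of prostaglandin F2 alpha, and Tbxa2r, the thromboxane receptor. Ptgfr had 19.996, 23.0 and 15.7 CPM in WT and 11.3, 12.3 and 11.2 CPM in KO, with a log2 fold change of -0.76 (SE 0.18, edgeR adjusted p 0.0762), and the genotypes did not overlap. Tbxa2r had a log2 fold change of 0.30 (edgeR adjusted p 0.270). With 6 separate libraries Ptgfr, Ptger3 (a prostaglandin E2 receptor) and Ptgdr2 (a prostaglandin D2 receptor of type 2 lymphocytes and eosinophils) were called, all lower, with log2 fold changes of -0.75, -1.24 and -0.50, as were Pla2g5, Alox8, Ptgds and Abcc4, also lower, and Pla2g1b, Ptges3 and Cbr1, higher. Those among these 10 not named above were chosen after their values were seen.

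**Figure D4:**
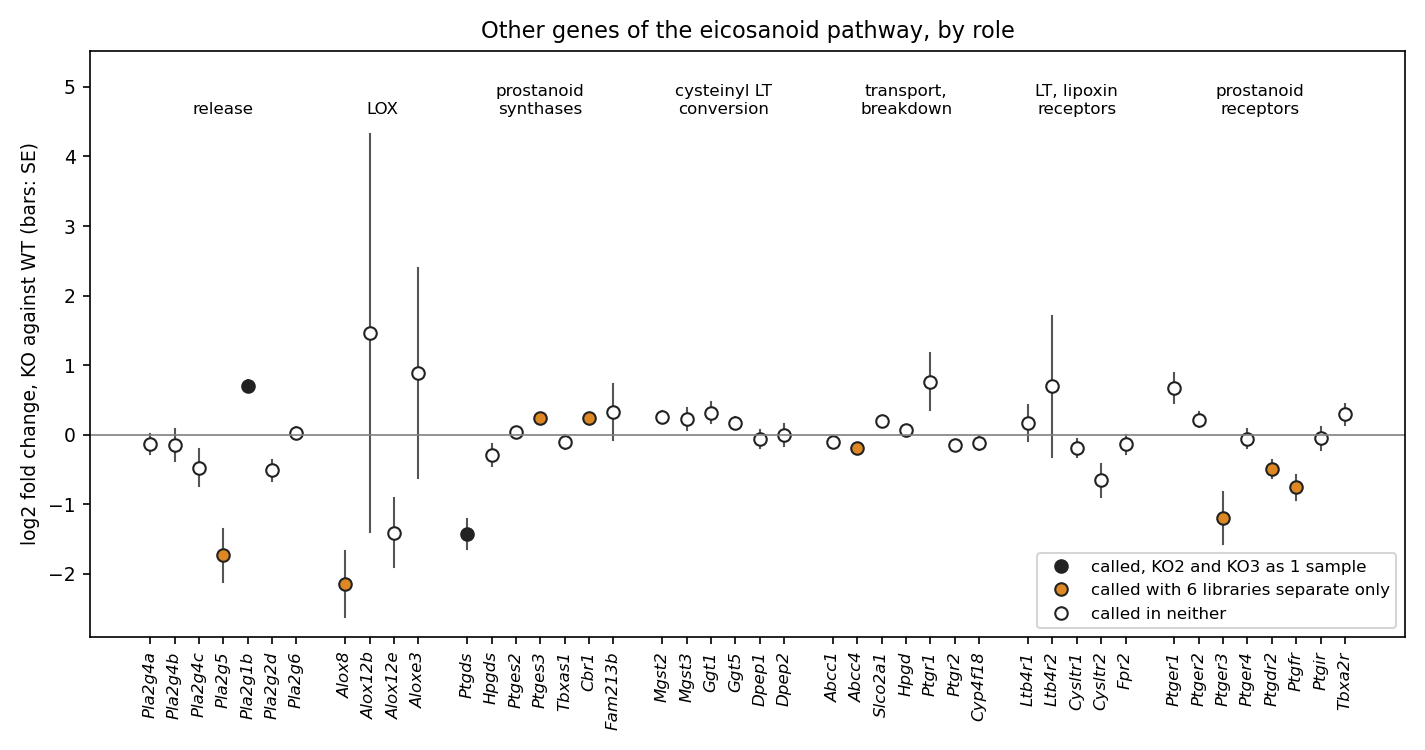
Log2 fold change (bars, SE from edgeR) of the 44 tested genes of the surrounding pathway, KO against WT, by role. Black points were called with KO2 and KO3 as 1 sample (Pla2g1b and Ptgds), orange points only with 6 separate libraries, and white points in neither; Alox12b and Aloxe3 have the longest bars.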

How the data were processed

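Lung RNA-seq of 3 WT and 3 KO mice was used. Per the labels and the study's methods, the authors trimmed reads (Trimmomatic 0.36), aligned them to GRCm38 with STAR 2.5.3a and deposited raw counts of reads per gene from HTSeq 0.6.0. The annotation release and the use of strand are not given in the sources used here. All 6 columns of library counts were used. R 4.3.3 with edgeR 4.0.16 was run with filterByExpr, TMM scaling, glmQLFit and glmQLFTest, two-sided, with Benjamini-Hochberg adjustment over all tested genes. KO2 and KO3 were summed to 1 sample. CPM of a library used TMM factors over 6 libraries, and the KO2 and KO3 values were averaged before the mean and SD. SE was derived from the fold change and its F statistic. DESeq2 1.42.0 was an alternative, with those of the closing section. The code was tested on simulated counts. P-values set each difference against the variation between these samples (n = 3 for WT and n = 2 for KO), estimated with information shared between genes.

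Exon lengths and positions came from GENCODE M21 (GRCm38), which holds 97.3% of the gene IDs. Sequences came from RefSeq (GRCm38.p6), which had an entry for 7 of the 10 members; the windows end at the base before the start, and GGGCGG and TTGCGCAA were added to the motifs after the windows were read. The members, lists and tests were chosen with earlier results of these data known. Members were all named. Of the 47 pathway genes, those called and the 2 of each role with the highest mean CPM, not divided by length, were named. Pattern likeness (Pearson r of log2(CPM + 0.5)) was computed for all members. It is given for the member with the smallest p, that with the widest range and, outside this rule, Ptgs1 and Ltc4s.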

Additional observations from a re-analysis of the deposited data

How the results depend on the processing

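The counts of genes called and the values of the 10 members were recomputed under 17 alternatives. So were pathway genes called in the reported fit or with 6 separate libraries, wherever they passed the filter. Markers and the remaining pathway genes were followed in those fits only. Of the 170 values for the 10 members, 145 kept direction and side of the threshold, 7 kept direction and newly passed, and 18 turned, of which Alox15 without WT3 and KO1 passed too. The number of members called, 0 in the fit reported, was 2 with 6 libraries kept separate, 3 with DESeq2 and 3 without WT3 and KO1, and 0 in each leave-one-out fit and all others. All genes called, 426, became 3402 with 6 libraries separate, 1157 with the replicate block added to them, 909 with at least 10 counts in every sample, 3908 with DESeq2, 2342 with a term for squamous epithelium, 2256 without WT3 and KO1, 0 with the length and GC offset and 0 without KO2 and KO3 (3498 and 5070 genes before adjustment). Leaving out 1 library gave 0 to 418 calls, with 0 without WT1, WT2 or WT3 (3346 to 4193 before adjustment) and 17 without KO1. With library size alone 117 of 306 calls were higher in KO, against 257 of 426. The other pathway genes called, 2, became 10 with separate libraries, 4 with the replicate block, 11 with DESeq2, 8 with the squamous term, 7 without WT3 and KO1, 1 with library size alone, 1 without a filter, 0 with the length and GC offset, 0 without KO2 and KO3 and 0 to 2 with 1 library left out. The causes were not tested.

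Alox5, Alox12, Ptgs2 and Ptgis kept their direction in all 17. Turned values were, for Alox5ap, -0.0046 with library size alone, -0.0730 with the offset and -0.0192 and -0.0148 without WT1 or WT2 (-0.0192 to 0.178 with 1 library left out); for Alox15, 0.48 without WT3 (-1.57 to 0.48 with 1 left out) and 1.08 without WT3 and KO1; for Ltc4s, 0.0811 (-0.26 to 0.0811) and 0.12 under the same 2; for Lta4h, -0.0176 with separate libraries, -0.0188 with the replicate block, -0.0436 with library size alone, -0.0075 with the squamous term, -0.0529 without WT3 and KO1, -0.0130 without WT1 and -0.0702 without KO1 (-0.0702 to 0.0246); for Ptgs1, -0.0030 without KO2 and KO3; and for Ptges, 0.15 without KO2 and KO3 and 0.0333 without WT1 (-0.32 to 0.0333). Adjusted p ranged from 0.0430 to 0.282 for Alox5, 0.0205 to 0.283 for Alox12, 0.00545 to 0.321 for Ptgis, 0.00547 to 0.787 for Ptgs2 and 0.0424 to 0.849 for Alox15. Libraries share only a number between genotypes: deviations of same-numbered libraries correlated at -0.656, 0.755 and -0.821, and under the replicate block Alox12 and Ptgis were not called (edgeR adjusted p 0.0852 and 0.0869).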

Other observations

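The marker lists not described above also differed between libraries. The 5 adipocyte markers summed to 207 to 420 CPM in WT and 25.5 to 58.0 CPM in KO, with Plin1 called, lower. With 6 separate libraries all 5 were called lower. The 6 cardiomyocyte markers summed to 1791 to 5550 CPM in WT and 872 to 953.5 CPM in KO, with none called by edgeR (2 with 6 separate libraries). The 5 fibroblast markers summed to 1201 to 1419 CPM in WT and 868.5 to 1127 CPM in KO. Among them Dcn, a matrix proteoglycan, was called at a log2 fold change of -0.88 (edgeR adjusted p 0.0446), and 3 were called lower with 6 separate libraries. Of the 4 lung epithelium genes Sftpc and Ager were called, both higher in KO, and 3 were called higher with 6 separate libraries. Over all genes 18.9% were called in that fit. The part of these cell types in the values of the enzymes was not tested.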
